A study of Mus musculus with 8 samples.

Results

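The 5 genes described here encode proteins that move sodium across the plasma membrane of heart muscle cells or regulate that movement: *Atp1b1*, *Atp1b2* and *Atp1b3*, the β subunits of the sodium pump; *Fxyd1*, which encodes the pump's regulator phospholemman; and *Slc8a1*, which encodes the cardiac sodium-calcium exchanger. They were chosen by function from the 26590 gene symbols of the deposited table. All 5 were among the 14657 genes tested, with 13 transcript rows between them. For each gene, values are those of the row with the highest average of both genotype means, unless another row is named.

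Whole fetal hearts of 4 *Dio3*+/+ and 4 *Dio3*-/- mice on a C57BL/6J background were compared, each heart from an individual fetus and with no other allele or treatment in either group. *Dio3* encodes the type 3 deiodinase, the enzyme that inactivates thyroid hormones. The *Dio3*-/- mice lack the enzyme with no restriction to a tissue described. An effect within the heart and an effect of excess hormone in the rest of the fetus therefore cannot be told apart. The line was made on another inbred background before it was backcrossed to C57BL/6J, and whether sequence of that background remained near *Dio3* was not tested. The sample titles put all hearts at E13.5, the age field of *Dio3*-/- replicates 3 and 4 gives E18.5, and the study's methods name yet another day. The E18.5 entries fall on *Dio3*-/- hearts only. If they are right, genotype and age cannot be told apart in the genotype means. The deposited values are the mean of each genotype in RPKM, which are reads per kilobase of transcript scaled to the number of mapped reads, and the coefficient of variation (CV), which is the SD of the 4 hearts divided by their mean. Values of single hearts and read totals are not part of the table used here, so no counting error is given for the means. Differences are log2 ratios of *Dio3*-/- to *Dio3*+/+ on the log2(RPKM + 0.5) scale, tested with limma from the means and coefficients of variation and adjusted by the Benjamini-Hochberg method over all tested rows.

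The sodium pump exports sodium and imports potassium at the cost of ATP. Its α subunit carries out the transport, its β subunit is needed to fold the α subunit and bring it to the cell surface, and FXYD proteins bind the assembled pump and tune it. The sodium gradient that results drives the sodium-calcium exchanger, which removes calcium from the heart muscle cell after each beat, and mouse embryos without *Slc8a1* die in midgestation without a normal heartbeat. Genes of pump subunits are known targets of thyroid hormone in several tissues.

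The targeted gene was scarcely detected in hearts of either genotype. *Dio3* averaged 0.35 RPKM (CV 1.23) in *Dio3*+/+ and 0.13 RPKM (CV 0.76) in *Dio3*-/- hearts and was below the limit for testing, so it gives no check of the genotype labels. The defining transcripts of heart muscle were abundant, with a sum over 9 cardiomyocyte markers of 8530 RPKM in the wild-type *Dio3*+/+ hearts against 10118 RPKM in the *Dio3*-/- ones. The series is described as male, yet *Xist*, the RNA that silences an X chromosome in female cells, averaged 35.6 RPKM (CV 0.99) and 40.0 RPKM (CV 0.55). The Y-linked gene *Eif2s3y* averaged 9.38 RPKM (CV 1.04) in *Dio3*+/+ and 7.29 RPKM (CV 1.46) in *Dio3*-/- hearts. None of these values can be assigned to single hearts, so the mix of sexes in each genotype is not known.

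*Atp1b1* was the most abundant β subunit and had the largest difference of the 5 genes. It averaged 198 RPKM in *Dio3*+/+ hearts (CV 0.13) and 248 RPKM in *Dio3*-/- hearts (CV 0.05). The ratio of the means was 1.25, and the log2 ratio of 0.32 (standard error 0.09, 95% confidence interval 0.12 to 0.52) did not pass the threshold, with an adjusted *P* of 0.0893 by limma. From a mean and an SD of 4 values, no value can lie more than 1.5 SDs from the mean. The ranges given here use CVs raised by 0.005, the most that rounding can hide. The 4 *Dio3*+/+ hearts therefore lay between 158 and 239 RPKM and the 4 *Dio3*-/- hearts between 227 and 268 RPKM, so an overlap of the highest *Dio3*+/+ with the lowest *Dio3*-/- heart is possible but not shown. In the GENCODE annotation of GRCm38, 575 of the 3081 exonic bases of *Atp1b1* (18.7%) are shared with exons of *Nme7* on the opposite strand. The counting is not stated to use strand, so reads in these bases cannot be assigned to either gene.

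*Atp1b3*, a β subunit found in many tissues, was the only gene of the 5 with a wider spread in *Dio3*-/- than in *Dio3*+/+ hearts. It had means of 47.1 RPKM (CV 0.04) and 53.4 RPKM (CV 0.06). The log2 ratio was 0.18 (standard error 0.05, interval 0.06 to 0.30, adjusted *P* = 0.114 by limma). The *Dio3*+/+ hearts could reach at most 50.3 RPKM and the *Dio3*-/- hearts went no lower than 48.1 RPKM, a narrow zone of possible overlap.

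*Atp1b2*, known as the adhesion molecule on glia of the nervous system, was the least abundant of the 5 and differed least. Its means were 25.5 RPKM (CV 0.09) and 27.1 RPKM (CV 0.04). The log2 ratio of 0.09 (standard error 0.07) had an interval of −0.06 to 0.24, a ratio of 0.958 to 1.18 (adjusted *P* = 0.531 by limma). The range open to the *Dio3*-/- hearts, 25.3 to 29.0 RPKM, lay inside the wider one open to the *Dio3*+/+ hearts, 21.9 to 29.2 RPKM.

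*Fxyd1* was as abundant as *Atp1b1* in *Dio3*-/- hearts and the most variable of the 5 among *Dio3*+/+ hearts. Phospholemman, its product, holds the pump back until adrenergic signalling leads to its phosphorylation. It averaged 221 RPKM in *Dio3*+/+ hearts (CV 0.19) and 248 RPKM in *Dio3*-/- hearts (CV 0.07). The log2 ratio was 0.16 (standard error 0.12, interval −0.11 to 0.44, adjusted *P* = 0.521 by limma). The *Dio3*-/- hearts, between 220.0 and 276 RPKM, could all lie inside the range open to the *Dio3*+/+ hearts, 157 to 286 RPKM. The 6 transcript rows of *Fxyd1* ran from 131 to 221 RPKM in *Dio3*+/+ hearts and from 149 to 248 RPKM in *Dio3*-/- hearts. Their log2 ratios stayed between 0.16 and 0.18, with adjusted *P* values by limma from 0.464 to 0.521. These rows share exons and therefore reads, and are not independent measurements.

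*Slc8a1* was higher in mean in *Dio3*-/- hearts in each of its rows. It averaged 212 RPKM (CV 0.13) in *Dio3*+/+ hearts and 249.6 RPKM (CV 0.05) in *Dio3*-/- hearts. The log2 ratio was 0.23 (standard error 0.09, interval 0.04 to 0.43, adjusted *P* = 0.193 by limma). The *Dio3*+/+ hearts lay between 169 and 255 RPKM and the *Dio3*-/- hearts between 229 and 270.2 RPKM, so the genotypes could overlap. The other 3 rows of *Slc8a1* were much lower, from 83.1 to 98.9 RPKM in *Dio3*+/+ and from 94.3 to 113 RPKM in *Dio3*-/- hearts, and their log2 ratios were 0.18 to 0.19. A further 2 rows stand under NCX1, another symbol of the same gene. One had 179 and 207 RPKM, a log2 ratio of 0.21 (adjusted *P* = 0.335 by limma), and the other, at 0.89 and 0.93 RPKM, was below the limit for testing. All tested rows of the exchanger were higher in mean in *Dio3*-/- hearts, and none passed the threshold. They are rows of the same gene measured in the same hearts, and are not independent measurements. An antisense transcript shares 1.6% of the exonic bases of *Slc8a1*.

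**Figure D1:**
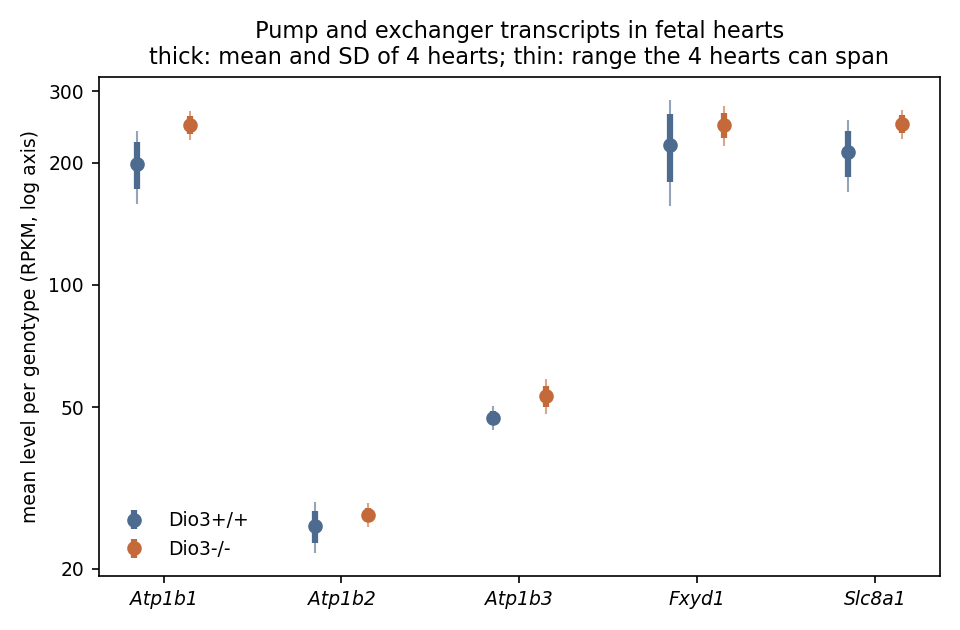
Mean level (RPKM, log axis) of the 5 genes in *Dio3*+/+ (blue) and *Dio3*-/- (orange) hearts; thick bars are the SD of 4 hearts and thin lines the range that the 4 hearts can span given their mean and SD. *Fxyd1*, *Slc8a1* and *Atp1b1* sit at 198 RPKM or above, *Atp1b3* at 47.1 and 53.4 RPKM and *Atp1b2* lowest, and the thin lines of the genotypes overlap for every gene.

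**Figure D2:**
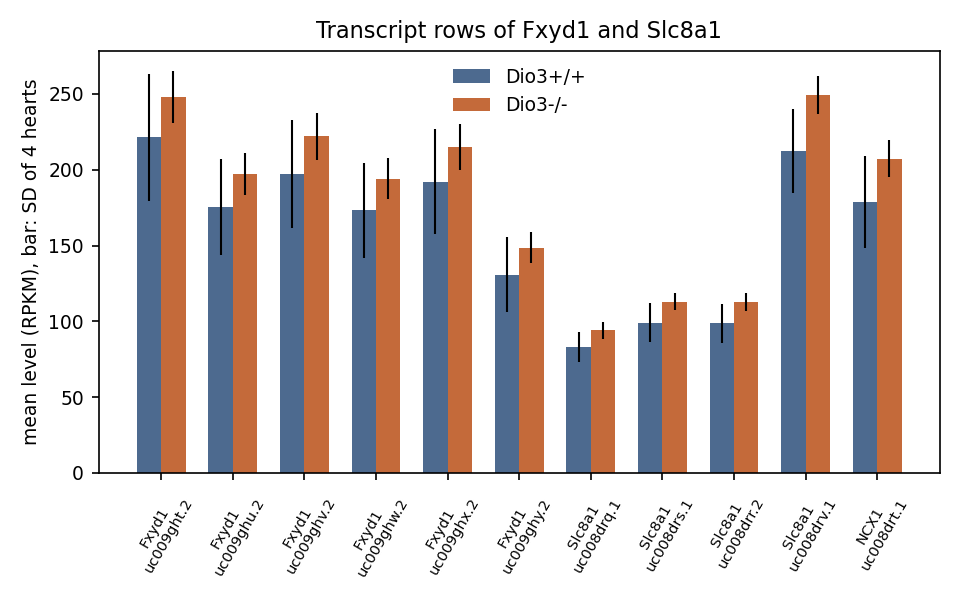
Mean level (RPKM, linear axis) of each tested transcript row of *Fxyd1*, *Slc8a1* and NCX1 in *Dio3*+/+ (blue) and *Dio3*-/- (orange) hearts, with bars for the SD of 4 hearts. The *Dio3*-/- bar is the higher one in each row and its SD the shorter one, while levels between rows of *Slc8a1* differ far more than levels between genotypes.

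All 5 genes were higher in mean in *Dio3*-/- hearts and none passed the limma threshold, an adjusted *P* value of 0.05. Among all tested genes, 63.3% had a log2 ratio above 0, 2.29% passed in either direction and 1.91% passed while higher in *Dio3*-/- hearts. Before adjustment, 3 of the 5, *Atp1b1*, *Atp1b3* and *Slc8a1*, were below 0.05, against 15.2% of all genes in this direction. The median log2 ratio was 0.18 over the 5 genes and 0.04 over all tested genes. The log2 ratio of *Atp1b1* was above that of 96.8% of genes, that of *Slc8a1* above 92.9%, *Atp1b3* above 86.9%, *Fxyd1* above 84.8% and *Atp1b2* above 66.2%. For none of the 5 was an overlap between the hearts of the genotypes impossible, which was the case for 3.95% of all genes.

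By the highest row of each gene, *Fxyd1*, *Slc8a1* and *Atp1b1* formed an upper tier of abundance, with *Atp1b3* and then *Atp1b2* below it. The place of a gene with several rows depends on that choice. In *Dio3*+/+ hearts the lowest row of *Slc8a1* had 83.1 RPKM and that of *Fxyd1* 131 RPKM. In *Dio3*+/+ hearts, *Fxyd1*, *Slc8a1* and *Atp1b1* were above 97.9%, 97.9% and 97.7% of tested genes, and their order is not resolved. The log2 difference in level between neighbours was 0.06 for *Fxyd1* over *Slc8a1* and 0.10 for *Slc8a1* over *Atp1b1*, smaller than the spread between hearts. In *Dio3*-/- hearts the same 3 genes had means of 248, 249.6 and 248 RPKM. *Atp1b3*, above 90.0% of genes in *Dio3*+/+ hearts, was 4.21-fold below *Atp1b1* and 1.85-fold above *Atp1b2*, which was above 79.9% of genes. The covariance between genes is not known from genotype means, so the widest interval was calculated, in which the deviations of 2 genes are fully opposed. Even that interval excluded equal levels in *Dio3*+/+ hearts for *Atp1b1* against *Atp1b3* (log2 difference in level 2.06, 1.67 to 2.45) and for *Atp1b2* against *Atp1b3* (−0.87, −1.17 to −0.58).

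Whether the genes changed by different amounts could not be shown. The largest gap was between *Atp1b1* and *Atp1b2*, whose log2 ratios between genotypes differed by 0.23, with a widest interval of −0.18 to 0.65. For all 10 pairs of the 5 genes the widest interval held 0, and for 6 of the 10 the narrowest one did too, in which the deviations of both genes move fully together.

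The spread between hearts was smaller in *Dio3*-/- than in *Dio3*+/+ hearts for 4 of the 5 genes, as it was for 65.4% of all tested genes. Coefficients of variation ran from 0.04 to 0.19 in *Dio3*+/+ and from 0.04 to 0.07 in *Dio3*-/- hearts, where the medians over all genes were 0.09 and 0.06. That of *Fxyd1* in *Dio3*+/+ hearts was above those of 84.7% of genes, and that of *Atp1b3* above only 8.5%.

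Among the β subunits of the pump, the proportions of the 3 transcripts were close in both genotypes. *Atp1b1* made up 73.2% of the summed RPKM of the β subunits in *Dio3*+/+ and 75.5% in *Dio3*-/- hearts. The shares of *Atp1b3* were 17.4% and 16.2%, and those of *Atp1b2* were 9.41% and 8.26%. Their sum was 271 RPKM in *Dio3*+/+ hearts and 328 RPKM in *Dio3*-/- hearts. The ratio of *Atp1b1* to *Atp1b3* was 4.21 in *Dio3*+/+ and 4.65 in *Dio3*-/- hearts, and that of *Atp1b3* to *Atp1b2* was 1.85 and 1.97. The shares were not tested, because the values of single hearts are needed for it.

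**Figure D3:**
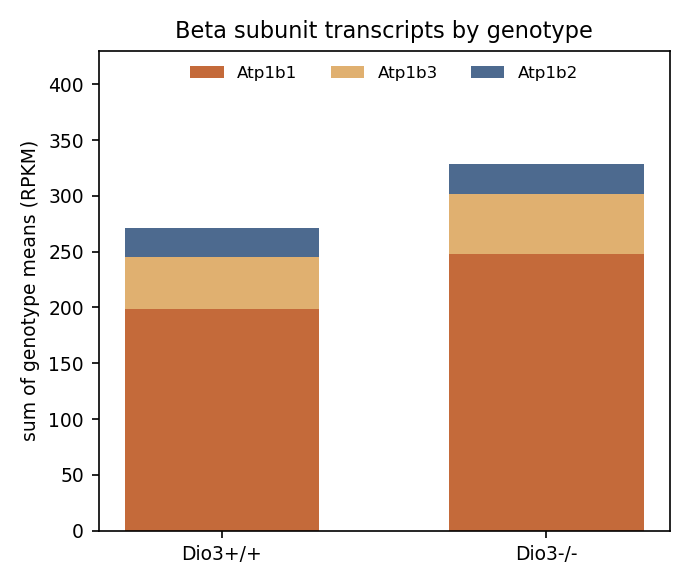
Sum of the genotype means (RPKM, linear axis from 0) of the β subunits, stacked by gene for *Dio3*+/+ and *Dio3*-/- hearts. *Atp1b1* fills 73.2% and 75.5% of the bars, whose heights are 271 and 328 RPKM.

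Other carriers and regulators of sodium, calcium, potassium and chloride had means that were higher for some and lower for others. Of 48 such genes in the table, 33 were tested. Higher means in *Dio3*-/- hearts were found for 19 and lower means for 14, where 63.3% of all tested genes had a log2 ratio above 0. The median log2 ratio was 0.04, against 0.04 over all genes. Before adjustment, 8 higher and 1 lower gene were below 0.05. Over all 14657 tested genes these counts were 2229, or 15.2%, and 654. A single gene of the list passed the threshold, where 2.29% of all tested genes passed in either direction. *Slc12a4*, which encodes a potassium-chloride cotransporter, rose from 13.3 RPKM (CV 0.02) to 15.6 RPKM (CV 0.03), a log2 ratio of 0.22 (standard error 0.04, adjusted *P* = 0.0379 by limma). That call was lost in 4 of the 9 alternatives, with adjusted *P* values from 0.0315 to 0.0839 over all 9.

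Of the other FXYD proteins, *Fxyd5*, known as dysadherin, had the largest positive log2 ratio of the list, 0.34, with 12.6 and 16.1 RPKM (adjusted *P* = 0.0653 by limma). *Fxyd6* and *Fxyd7* had negative log2 ratios, with CVs in *Dio3*+/+ hearts of 0.34 and 0.86. The 3 tested *Nkain* genes, whose products bind the pump, all had negative log2 ratios that did not pass.

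Among transport genes with a mean above 20 RPKM in a genotype, *Atp2b4*, a plasma membrane calcium pump, had 25.6 and 23.8 RPKM (log2 ratio −0.10, adjusted *P* = 0.328 by limma). *Atp2b1*, another such pump, had 19.9 and 22.0 RPKM (0.14, adjusted *P* = 0.353), so the pair went opposite ways without passing. *Sik1*, a salt-inducible kinase, had 24.3 and 26.2 RPKM (0.11, adjusted *P* = 0.322), and *Slc12a7*, a potassium-chloride cotransporter, had 18.9 and 21.7 RPKM (0.20, adjusted *P* = 0.172). The other sodium-calcium exchangers were far below *Slc8a1*: *Slc8a2* had 2.13 and 2.14 RPKM, and *Slc8a3* was not above 1 RPKM in either genotype.

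**Figure D4:**
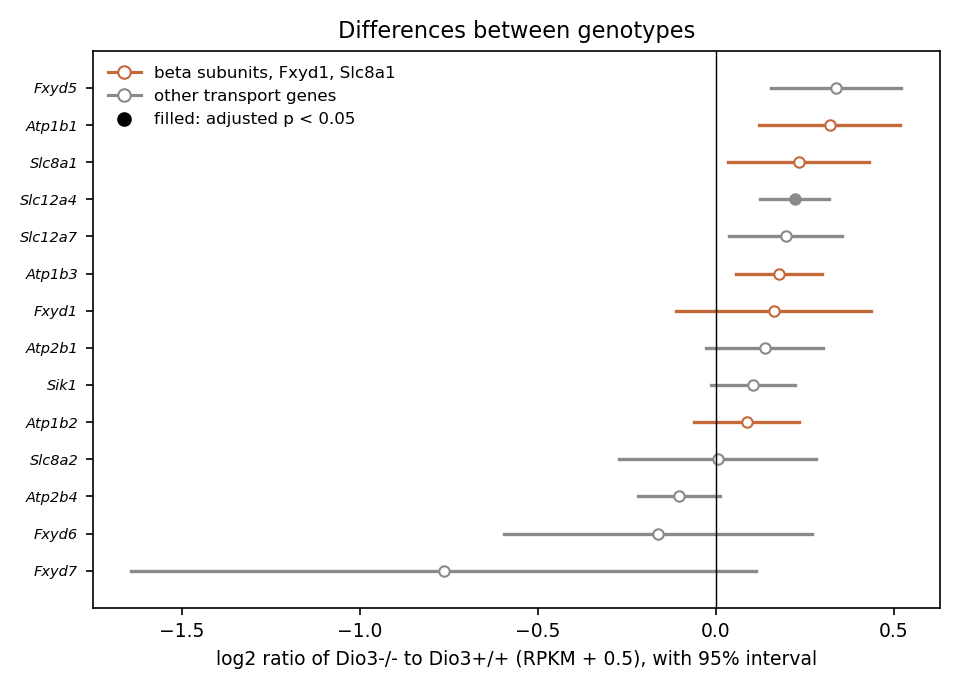
Log2 ratio of *Dio3*-/- to *Dio3*+/+ hearts with its 95% confidence interval for the 5 genes (orange) and the other tested transport genes given with their own values in the text (grey), sorted by the ratio; filled points have an adjusted *P* value under 0.05 by limma. *Slc12a4* is the only filled point. *Atp1b1*, *Slc8a1* and *Atp1b3*, and *Fxyd5* and *Slc12a7* among the grey genes, have intervals above 0 with open points.

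Levels of markers of other cell types also differed in mean between genotypes, and the only markers past the threshold were those of cardiomyocytes named below. In whole hearts fewer cells of a type and less RNA per cell cannot be told apart. The summed level of 5 red cell markers went from 10323 RPKM in *Dio3*+/+ to 3753 RPKM in *Dio3*-/- hearts, each marker lower in mean and none past the threshold (lowest adjusted *P* = 0.0759 by limma). Of the 9 cardiomyocyte markers, 8 had positive log2 ratios, where 63.3% of all tested genes did, and the median of the 9 was 0.24. *Myh6* and *Ryr2* passed the threshold, 2 of the 9, where 2.29% of all tested genes passed in either direction. The log2 ratio was −0.08 for *Myh7* and 0.08 for both *Tnnt2* and *Tnni1*, so the markers did not rise alike. The summed level of 6 liver markers went from 13.6 RPKM in *Dio3*+/+ to 100.02 RPKM in *Dio3*-/- hearts, each marker higher in mean, none past the threshold and with a median CV of 1.18 in both genotypes. The 8 markers of neurons and Schwann cells summed to 6.99 and 6.52 RPKM. Skeletal muscle markers summed to 142 and 152 RPKM, of which *Acta1* alone had 114 and 150 RPKM. The other 3 of the 4, *Myod1*, *Myog* and *Myh3*, were lower in mean (median log2 ratio of the 4 −2.49). Their CVs in *Dio3*+/+ hearts were 1.56 to 1.62, where the largest CV of any row was 2, so their means rest on very unequal hearts. The sums of the other lists were 664 and 780 RPKM for smooth muscle, 752 and 659 RPKM for fibroblasts, 202 and 218 RPKM for endothelium, and 19.0 and 17.3 RPKM for macrophages. In none of these lists, skeletal muscle included, did a marker pass the threshold. No marker of these lists was at 0 in both genotypes. The part of these shifts in the higher means of the pump and exchanger genes was not tested.

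Genes whose pair of genotype levels came close to that of *Atp1b1* included *Mdh1* (198 and 251 RPKM, distance 0.02 on the log2 scale) and the clone AK209396 (193 and 239 RPKM, 0.07). This likeness is over 2 genotype means only.

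The starts of the genes differ in base composition, and the 250 bases before them are shown for *Atp1b1*, which had the largest difference, for *Atp1b3* and for *Fxyd1*, to set the pump's β subunits beside its regulator. The sequences are those of RefSeq on GRCm38.p6, in which 4 of the 5 genes were matched by symbol. They run 5′ to 3′ on the strand of the gene, which is the minus strand for each, and capitals mark the GC box GGGCGG and the box CCAAT on either strand.
Atp1b1 (chr1:164458356-164458605): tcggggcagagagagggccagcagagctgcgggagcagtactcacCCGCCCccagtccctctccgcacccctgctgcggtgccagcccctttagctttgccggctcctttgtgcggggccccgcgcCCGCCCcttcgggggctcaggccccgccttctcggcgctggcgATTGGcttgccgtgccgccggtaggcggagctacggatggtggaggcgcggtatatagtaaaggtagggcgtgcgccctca
Atp1b3 (chr9:96364432-96364681): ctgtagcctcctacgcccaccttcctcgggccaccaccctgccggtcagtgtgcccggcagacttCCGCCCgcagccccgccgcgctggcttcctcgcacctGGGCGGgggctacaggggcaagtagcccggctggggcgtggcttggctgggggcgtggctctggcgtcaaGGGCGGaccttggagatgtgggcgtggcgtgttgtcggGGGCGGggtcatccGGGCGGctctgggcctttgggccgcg
Fxyd1 (chr7:31054854-31055103): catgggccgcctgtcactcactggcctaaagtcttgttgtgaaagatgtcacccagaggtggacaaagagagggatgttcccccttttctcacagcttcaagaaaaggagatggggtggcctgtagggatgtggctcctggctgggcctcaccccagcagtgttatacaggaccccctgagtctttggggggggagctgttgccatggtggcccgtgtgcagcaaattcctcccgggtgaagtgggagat

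The share of G and C was 70.4% for *Atp1b1*, 73.6% for *Atp1b3* and 57.2% for *Fxyd1*, where the median over all starts was 52.4%. The start of *Atp1b1* held 2 GC boxes, 205 and 124 bases before it, and 1 CCAAT box 81 bases before it, all on the opposite strand. The start of *Atp1b3* that is shown held 5 GC boxes, between 185 and 26 bases before it. A second start of *Atp1b3* in the table, with 76.8% G and C, held 0. The start of *Fxyd1* held neither motif, and nor did that of *Slc8a1*. A GC box was found in 32.7% and a CCAAT box in 33.8% of the 32851 starts in the table. The half-site AGGTCA, which thyroid hormone receptors bind, was in none of the 5 windows of the 4 genes and in 14.0% of all starts. Its direct repeat with a gap of 4 bases was in 5 of all starts. TATAAA was likewise absent from the 5 windows, against 12.4% of all starts. A match is a description of the letters in these windows, and none of the windows speaks to binding elsewhere.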

How the data were processed

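RNA of 8 fetal hearts was depleted of ribosomal RNA and sequenced as single-end reads. According to the study's methods and the submitters' processing notes, reads were checked with FastQC, aligned with NovoAlign (version 2.08), restricted to unique matches and scaled linearly to the smallest sample. The genome build is not given in the sources used here. The authors deposited a table of 51414 rows, each a UCSC known-gene transcript, with the mean of each genotype, read as RPKM because the methods filter in that unit, and a coefficient of variation, which is a ratio of SD to mean. Columns with the authors' fold change and q value were not used.

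For each row, log2(mean + 0.5) was taken, the coefficient of variation gave the SD on this scale, and limma (version 3.58.1, in R 4.3.3) moderated the pooled variance of 6 residual degrees of freedom toward a mean-variance trend worth 3.52 more. Benjamini-Hochberg adjustment covered the 32703 rows in which either genotype averaged more than 1 RPKM. The procedure was tested on simulated data. Python (3.11.15) was used for summaries and for exon overlaps with GENCODE M21, whose build may differ from that of the table. All tests were 2-sided. Alternatives were other pseudocounts, filters, centring, Welch's test (named in the study's methods, here made from the rounded means and CVs) and the error of rounding.

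The 5 genes and the gene lists were chosen with earlier results of these data known. Named transport genes had an adjusted *P* value under 0.05 or a mean above 20 RPKM in a genotype. The other genes of that list that are named, and the cardiomyocyte and skeletal muscle markers, were singled out after their values were seen. The 3 genes nearest to the member with the lowest adjusted *P* value were chosen by distance. Some genes that these rules name are not reported here. *Slc8b1* was looked up under its older symbol, *Slc24a6*.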

Additional observations from a re-analysis of the deposited data

How the results depend on the processing

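Under the 3 alternatives that can move a log2 ratio, which are the pseudocounts and centring, those of the 5 genes stayed positive. Over all 9 alternatives (pseudocounts of 0.1 and 1, all 49226 rows with a nonzero mean tested, rows kept only above 5 RPKM on average, a variance without trend, Welch's test, the highest row of each gene alone, centring on the median log2 ratio, and coefficients of variation raised by their rounding error), no gene of the 5 passed the threshold. Adjusted *P* values ran from 0.0707 to 0.233 for *Atp1b1*, from 0.0965 to 0.252 for *Atp1b3*, from 0.161 to 0.352 for *Slc8a1*, from 0.483 to 0.682 for *Fxyd1* and from 0.497 to 0.779 for *Atp1b2*. Centring, which takes 0.04 from every log2 ratio, gave the lowest values, 0.28 for *Atp1b1* and 0.05 for *Atp1b2*. The single call in the list of transport genes, *Slc12a4*, fell to 0 calls with Welch's test, with centring, with raised coefficients of variation and without the mean-variance trend. With Welch's test the unadjusted *P* of *Slc12a4* was 0.000465, against 0.000559 by limma, while its adjusted *P* was 0.0787. There 62 rows passed over all genes, against 703 by limma. The cause of the lost calls was not tested. Over all genes the number of symbols with a called row was 379, and 32 with Welch's test, 197 with centring, 206 with raised coefficients of variation 221 without a filter, 300 without the trend and 429 above 5 RPKM. The share of *Atp1b1* among β transcripts is the same with all rows averaged, since each β gene has 1 row. No paired analysis was possible because the table gives genotype means, and leaving out each heart in turn, the hearts with a conflicting age among them, was not run for the same reason. The table gives no read totals, so the precision that depth allows was not calculated.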
